A study of Mus musculus with 15 samples.

Results

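The genes described here are 38 markers of the liver cells that are not hepatocytes, chosen by symbol from the 55573 genes of a liver RNA-seq count table. They fall into 5 lists: 10 genes of Kupffer cells and other macrophages, 6 of endothelium, 9 of stellate cells and fibroblasts, 5 of bile duct cells, and 8 of lymphocytes and antigen presentation. The libraries came from 15 mice of the B6N(Cg)-Esr1tm4.2Ksk/J strain, 8 weeks old, with 1 library per mouse: 3 wild type females (FWT), 5 homozygous ESR1KO females (FKO), 3 wild type males (MWT) and 4 homozygous ESR1KO males (MKO). ESR1KO mice lack an exon of Esr1, the gene for estrogen receptor alpha, in every tissue and not in the liver alone, and the study describes raised testosterone in both sexes of this line, so that an effect of the receptor within the liver cannot be told apart from hormonal effects of its loss elsewhere. No liver cells were sorted, and the labels describe no other treatment. The questions addressed are whether the RNA of each cell type differed between the sexes, between genotypes, and whether the genotype difference depended on sex.

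Hepatocytes make up most of the liver mass, and the remaining cells line and patrol its sinusoids and ducts. Kupffer cells are resident macrophages that clear particles, complement-coated material and old red cells from portal blood. Sinusoidal endothelial cells are fenestrated scavenger cells, stellate cells store vitamin A and can turn into matrix-producing cells, and cholangiocytes line the bile ducts. In whole liver RNA each of these cell types is read through a few genes that hepatocytes express weakly or not at all, and fewer cells of a type and less RNA per cell cannot be told apart. Spp1 and Colec11 are also transcribed by cells outside their list, Spp1 by macrophages and Colec11 by hepatocytes.

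Coordinates are those of GENCODE M21 on GRCm38. Total counts lay between 27799061 and 78624766 per mouse, with a median of 44169276. Esr1 fell from 81.9 ± 6.79 CPM (SD, n = 3) in FWT to 13.1 ± 4.01 CPM (SD, n = 5) in FKO, and from 36.1 ± 14.1 CPM (SD, n = 3) in MWT to 11.8 ± 3.35 CPM (SD, n = 4) in MKO, with edgeR adjusted p = 4.47e-06 and 0.00445. Xist and the Y-linked genes matched the labelled sex in all 15 mice. From 0.159% to 0.212% of a library fell on the 38 genes, and 10.5% to 14.3% on 11 hepatocyte genes. FKO mice 1 and 2 stood apart from the other FKO mice in some of the 38 genes: they were the 2 lowest of the 15 mice for 6 and the 2 highest for 3. Mouse FKO1 had the largest deviation from its group over all genes tested (root mean square 0.397 on the log2 scale, other mice 0.232 to 0.327). FKO2 did not stand apart by this measure (0.299, against 0.3025 to 0.327 in FKO3, FKO4 and FKO5). The 10 most abundant genes held 24.7% and 22.2% of reads in FKO1 and FKO2 against 15.97% to 20.3% in the other mice. The tests of the 38 genes were therefore also run without these 2 mice, a check added after their values were seen and not made for the companion genes named below. Of the calls on the 38 genes, those of Spp1 in females and of the interaction for Epcam were lost and the others held. The 2 mice were chosen partly for their low values of some members. Leaving them out raises the FKO means of those genes by construction, and a call gained or kept in this way is a description only. Mouse MWT3 had the lowest level of 4 of the 6 endothelial genes. The groups of 3 WT mice serve in several comparisons, so that these share their control libraries.

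The upstream bases of 4 genes are shown because they were called in the comparisons below and stand for 3 of the lists: Vsig4 and Timd4 for the difference between the sexes in Kupffer genes, Epcam for bile duct genes and H2-Aa for antigen presentation. Promoters were found in RefSeq for 26 of the 38 genes (GRCm38.p6). Each run gives the 250 bases before the annotated start, 5′ to 3′ on the strand of the gene. Capitals mark AGGTCA, a motif bound by many nuclear receptors, GAGGAA, a purine-rich core of the kind bound by ETS factors, and CCAAT, each searched on both strands, so that CCAAT read from the other strand appears as ATTGG.
Vsig4 (chrX:96293439-96293688, minus strand): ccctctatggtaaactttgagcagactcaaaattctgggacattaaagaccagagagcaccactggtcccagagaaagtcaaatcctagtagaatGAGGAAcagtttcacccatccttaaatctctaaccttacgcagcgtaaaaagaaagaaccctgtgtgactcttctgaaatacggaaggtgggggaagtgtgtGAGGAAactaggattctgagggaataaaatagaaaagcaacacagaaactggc
Timd4 (chr11:46810549-46810798, plus strand): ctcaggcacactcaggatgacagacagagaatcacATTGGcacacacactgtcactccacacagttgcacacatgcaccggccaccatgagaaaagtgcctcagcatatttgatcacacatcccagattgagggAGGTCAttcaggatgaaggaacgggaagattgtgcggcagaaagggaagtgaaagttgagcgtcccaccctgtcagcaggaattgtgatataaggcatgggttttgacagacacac
Epcam (chr17:87635729-87635978, plus strand): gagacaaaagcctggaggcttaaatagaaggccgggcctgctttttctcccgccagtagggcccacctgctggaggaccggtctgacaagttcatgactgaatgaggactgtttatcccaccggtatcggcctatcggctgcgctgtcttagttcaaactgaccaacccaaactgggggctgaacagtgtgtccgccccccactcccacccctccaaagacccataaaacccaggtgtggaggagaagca
H2-Aa (chr17:34287824-34288073, minus strand): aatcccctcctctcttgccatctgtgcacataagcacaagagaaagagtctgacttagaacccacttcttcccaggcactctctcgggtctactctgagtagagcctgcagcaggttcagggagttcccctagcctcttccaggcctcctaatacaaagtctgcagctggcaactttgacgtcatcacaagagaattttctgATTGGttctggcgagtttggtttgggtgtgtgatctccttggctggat
AGGTCA stood upstream of 4 of the 26 genes (C1qc, Clec4f, Stab2 and Timd4) and in 14% of all 32851 promoter windows of the same length. The first count is by gene and the second by window, here and for the motifs that follow. GAGGAA stood in 11 of 26 and in 23.3% of all windows, AGGAAGT, a longer motif that can overlap GAGGAA, in 6 of 26 and in 7.69%, CCAAT in 8 of 26 and in 33.8%, and TATAAA in 4 of 26 and in 12.4%. The estrogen response element palindrome GGTCANNNTGACC stood in none of the 26 and in 0.0639% of all windows. The Epcam window held none of the 3 motifs in capitals. These matches are letters in a window and not measured binding sites.

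All 38 genes passed the filter on low counts, although their depth differed widely. Per kilobase of exon, Cd5l, a secreted scavenger protein of macrophages, was the most abundant (59.4 CPM per kb over the 15 mice, where CPM is the count scaled to a common library size), followed by Clec4f, a glycan-binding receptor of Kupffer cells (53.2), and by C1qa and C1qb, chains of the complement protein C1q (43.5 and 36.7). Of stellate genes the small proteoglycan decorin, Dcn, was highest (28.0 CPM per kb), of bile duct genes the secreted phosphoprotein Spp1 (24.2), of endothelial genes the lectin Clec4g (22.1), and of the immune list the class II invariant chain Cd74 (34.2). The T cell receptor chains Cd3e and Cd3g were at the low end with 0.0523 and 0.134 CPM per kb, and Krt7 at 0.107. Cd3e had between 4 and 22 reads per mouse, Cd3g between 10 and 39, Nkg7 between 7 and 43 and Cd79a between 12 and 51, so that differences in these genes were measured with wide intervals.

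**Figure D1:**
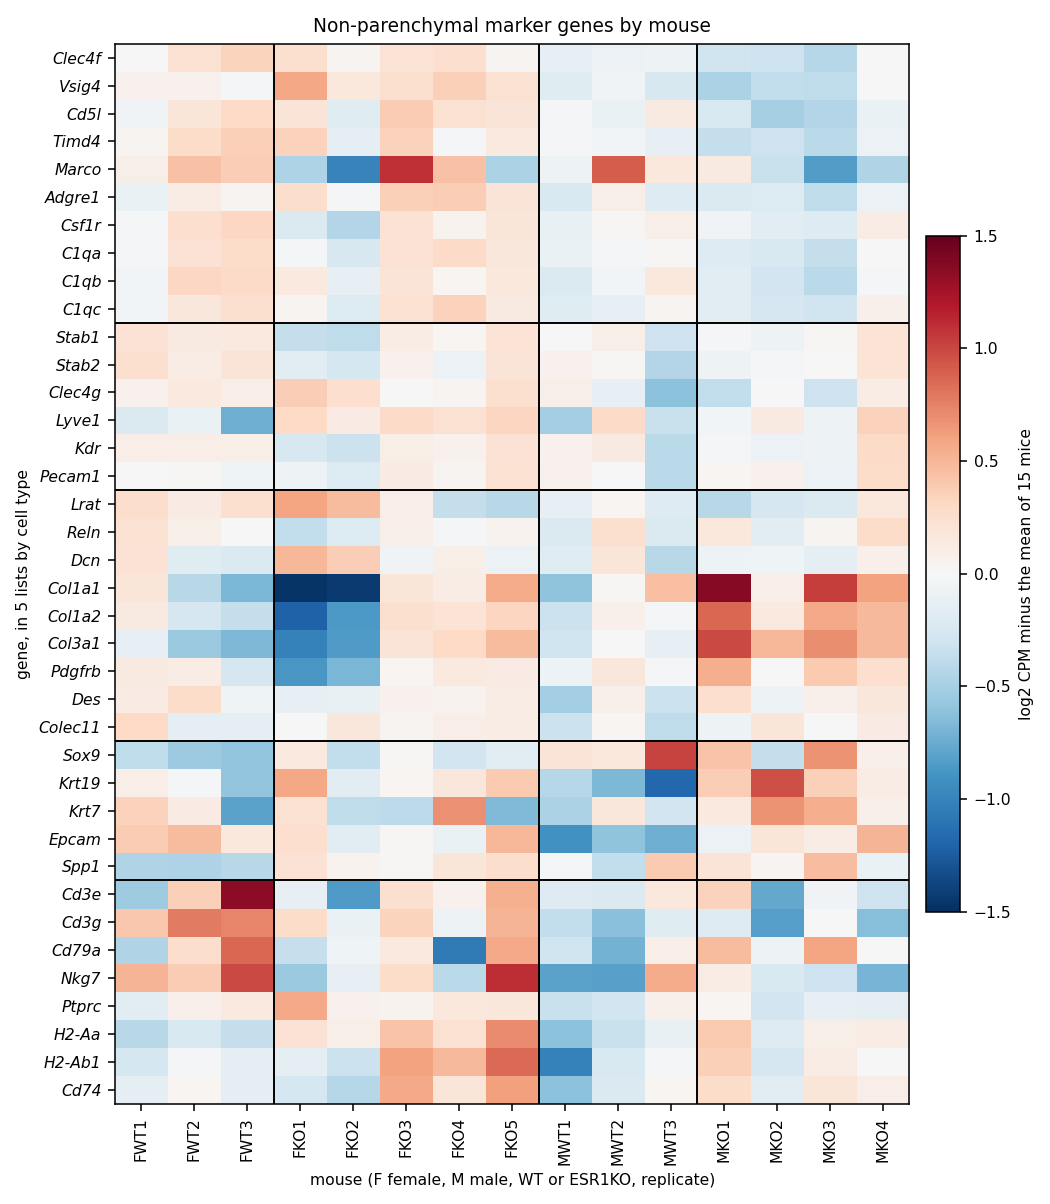
Heat map of the 38 genes (rows, in 5 lists divided by horizontal lines) in the 15 mice (columns, 4 groups divided by vertical lines); colour gives log2 CPM minus the mean of the 15 mice, and values past 1.5 in size take the end colour. The Kupffer rows are mostly red in females and blue in MKO, and the rows from Col1a1 to Pdgfrb are bluest in FKO1 and FKO2.

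Calls were made by edgeR's quasi-likelihood test at a Benjamini-Hochberg adjusted p under 0.05 over all 17655 genes tested, with no minimum for the fold change. In females, ESR1KO mice had more RNA of 2 of the 38 genes (Spp1 and H2-Aa) and less of none, which is 5.26% of the list against 5.71% of all genes (3.14% higher, 2.57% lower). In males, 2 were higher in ESR1KO (Krt19 and Epcam) and none lower, 5.26% against 1.42% of all genes (0.833% higher, 0.583% lower). The first of these shares lies near that of all genes. The WT sexes differed in 3 genes (Epcam and Cd3g higher in females, Sox9 lower), 7.89% against 4.87% of all genes (2.67% higher, 2.2% lower). Between ESR1KO females and males only Vsig4 was called, 2.63% against 0.272% (0.159% higher, 0.113% lower). The interaction of genotype and sex was called for Epcam alone, 2.63% against 1.94% (1.02% above 0, 0.923% below).

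Averaged over the sexes, Krt19 and H2-Aa were higher in ESR1KO and no gene was lower, 5.26% of the list against 4.13% of all genes (2.63% higher, 1.5% lower). Averaged over the genotypes, 6 genes were higher in females (Clec4f, Vsig4, Timd4, Adgre1, Epcam and Cd3g) and 1 was lower (Sox9), 18.4% of the list against 5.74% of all genes (3.28% higher, 2.46% lower). In this last comparison 29 of the 38 estimates were above 0, with a median log2 fold change of 0.14, where 52.6% of all genes tested were above 0 with a median of 0.01. For ESR1KO minus WT averaged over the sexes 22 of 38 estimates were above 0, with a median of 0.06. Of the 38 genes 10 were called in at least 1 of the 7 comparisons, against 12.1% of all genes tested. The 38 genes were chosen with earlier results of these data known, and many genes of a list vary together. Shares and directions of the list set against all genes are therefore a description only. The share of all genes with an unadjusted p under 0.05 was 22.5% for ESR1KO in females, 11.9% in males, 19.4% on average, 17.3% between the WT sexes, 17.5% between the ESR1KO sexes, 14.3% for the interaction and 20.6% for sex on average, and the counts at that level given below are set against these. No gene of the 38 was called with a log2 fold change of 1.5 or more in any of the 7 comparisons. Calls on companion genes given below are likewise set against the shares of all genes called in the same comparison.

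**Figure D2:**
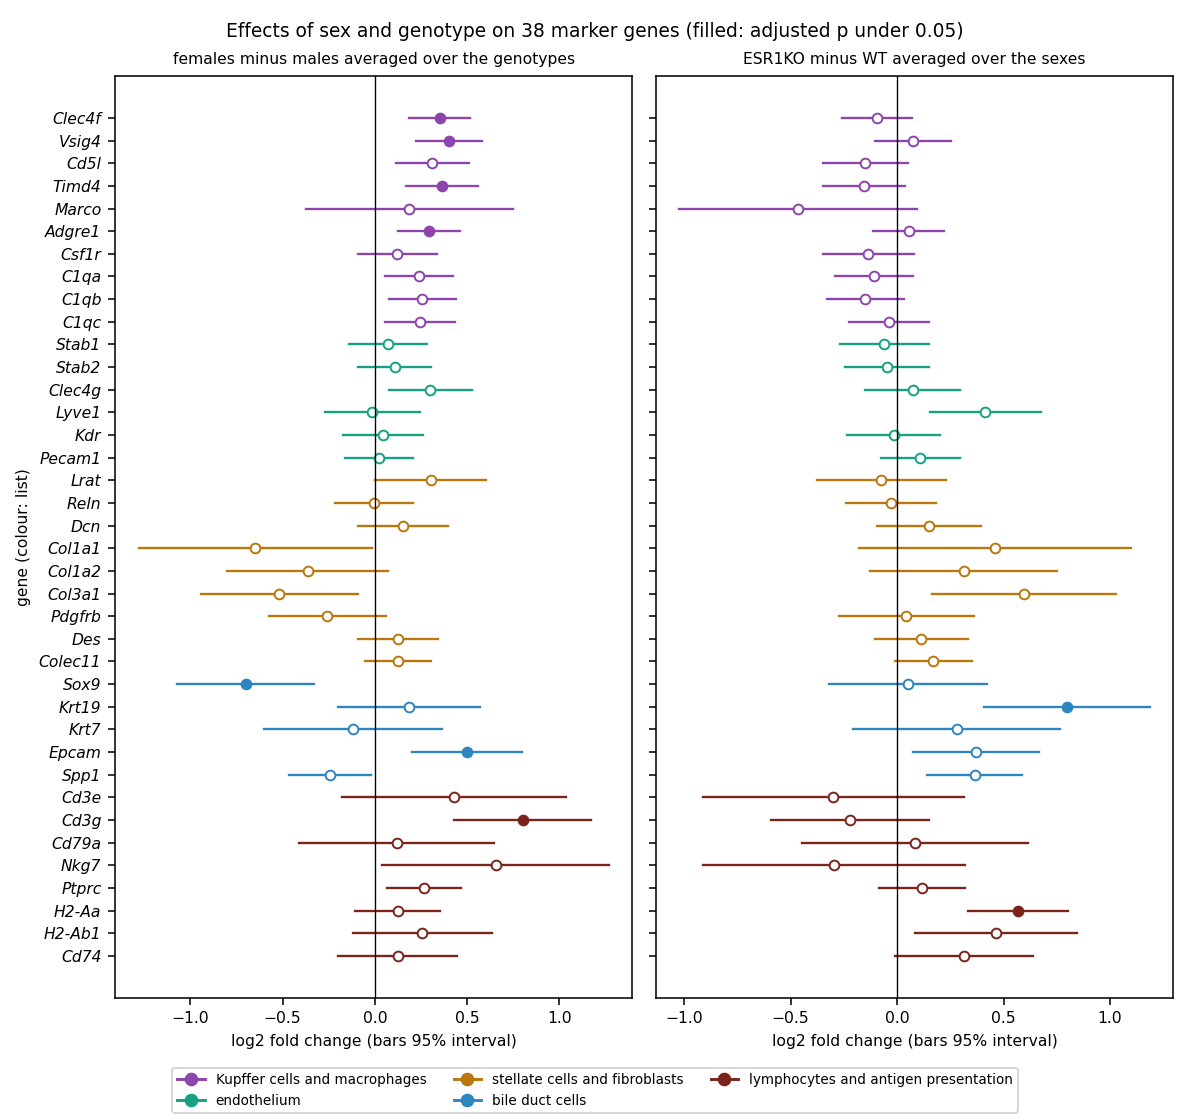
Estimated log2 fold change of each of the 38 genes (points) with its 95% interval (bars) for females minus males averaged over the genotypes (left) and ESR1KO minus WT averaged over the sexes (right); filled points had an adjusted p under 0.05 and colour gives the list. All 10 Kupffer estimates lie above 0 on the left, and the called genes on the right are Krt19 and H2-Aa.

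Of the 10 Kupffer cell and macrophage genes, 4 were higher in females than in males when the genotypes were averaged (Vsig4, Clec4f, Timd4 and Adgre1) and none was lower. All 10 estimates were above 0, with a median log2 fold change of 0.28, and 8 had an unadjusted p under 0.05, as did 20.6% of all genes. Vsig4, a complement receptor by which Kupffer cells take up bacteria from the blood (ENSMUSG00000044206, chrX:96247203-96293438, minus strand), stood at 33.95, 34.1 and 32.1 CPM in FWT, 48.6, 36.4, 38.4, 41.6 and 38.1 in FKO, 28.5, 31.4 and 27.5 in MWT and 23.5, 25.1, 24.9 and 32.7 in MKO, in the order of the replicate numbers. Females and males did not overlap within WT or within ESR1KO. The averaged difference between the sexes was called (log2 fold change 0.404, SE 0.0841, edgeR adjusted p = 0.00819) and kept its call when each mouse was left out in turn. Vsig4 is the only one of the 38 genes on the X chromosome. Within ESR1KO the difference was larger (log2 fold change 0.61, SE 0.108, edgeR adjusted p = 0.021) than within WT (log2 fold change 0.195, adjusted p = 0.487), but the test of that difference did not pass (interaction 0.42, adjusted p = 0.273). The call within ESR1KO was lost without MKO1, MKO2 or MKO3 (largest adjusted p = 0.0981) and when only these 2 groups were fitted (adjusted p = 0.106), and it was kept without FKO1 and FKO2 (adjusted p = 0.0385).

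Clec4f, the receptor that most narrowly marks Kupffer cells (ENSMUSG00000014542, chr6:83644542-83656187, minus strand), gave 131, 152 and 164 CPM in FWT and 119, 122 and 123 in MWT, and 153, 134, 149, 154 and 134 in FKO and 106, 105, 96.3 and 129 in MKO. Every female of a genotype was above every male of that genotype. Its averaged difference was called (log2 fold change 0.35, SE 0.0782, edgeR adjusted p = 0.013) and was lost without FWT3 alone (adjusted p = 0.0531). Timd4, the phosphatidylserine receptor of embryo-derived Kupffer cells (ENSMUSG00000055546, chr11:46810800-46844332, plus strand), stood at 8.08, 9.52 and 10.1 CPM in FWT, 7.73, 7.63 and 7.21 in MWT, 9.96, 7.11, 9.96, 7.73 and 8.68 in FKO and 6.11, 6.298, 5.904 and 7.37 in MKO. WT females and males did not overlap, while FKO2 at the low end lay below MKO4. Its call (log2 fold change 0.36, SE 0.0918, edgeR adjusted p = 0.027) was lost without any 1 of 7 mice (FWT2, FWT3, the 3 MWT mice, MKO1 or MKO3; largest adjusted p = 0.0894) and with no filter on low counts (adjusted p = 0.0535). Adgre1, which encodes the macrophage antigen F4/80 (ENSMUSG00000004730, chr17:57358691-57483527, plus strand), gave 29.1, 33.9 and 32.1 CPM in FWT, 26.7, 33.2 and 27.4 in MWT, 37.7, 30.97, 40.1, 40.5 and 35.9 in FKO and 26.9, 27.1, 23.9 and 29.5 in MKO. The WT groups overlapped and the ESR1KO groups did not. Its call (log2 fold change 0.29, SE 0.0786, edgeR adjusted p = 0.0372) was lost in 9 of the 15 fits with a mouse left out: those without FWT2, FWT3, FKO3, FKO4, MWT1, MWT3, MKO1, MKO2 or MKO3 (largest adjusted p = 0.115). With no filter its adjusted p was 0.0893.

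The remaining 6 genes of the list did not pass the test of sex averaged over the genotypes. Cd5l stood at 115, 135 and 147 CPM in FWT, 136, 105, 155, 140 and 136 in FKO, 118, 111 and 131 in MWT and 101, 84.3, 87.8 and 111 in MKO. Females and males overlapped in both genotypes, and MKO2 and MKO3 were the lowest of all mice. Cd5l had an estimate of 0.31 (95% interval 0.11 to 0.51, adjusted p = 0.0633). The 3 C1q genes, which lie side by side on the minus strand of chr4 between positions 136880129 and 136898803 and encode the 3 chains of 1 protein, had estimates of 0.24, 0.26 and 0.24 for C1qa, C1qb and C1qc, each with an interval above 0 and adjusted p of 0.121, 0.0912 and 0.121. Csf1r, the receptor for the growth factor that keeps macrophages alive, had an estimate of 0.12 (interval -0.09 to 0.33). Marco, a scavenger receptor, varied most within groups: FKO alone ranged from 2.68 to 11.4 CPM, and its interval for the sexes ran from -0.38 to 0.75. Within ESR1KO alone all 10 estimates were above 0 with a median of 0.42, and edgeR called Vsig4 while DESeq2 called 5 of the 10 (1.45% of all genes were higher by DESeq2). Within WT 9 of 10 estimates were above 0 with a median of 0.20, with 0 called by edgeR, 1 at an unadjusted p under 0.05 and 0 called by DESeq2. Without FKO1 and FKO2, 7 of the 10 genes were called higher in females in place of 4, in a fit where 4.9% of all genes were, the added ones being Cd5l, C1qa and C1qc (adjusted p = 0.0134, 0.0132 and 0.023). FKO2 was the lowest FKO mouse for these 3 genes. Scaling by total counts called Cd5l and C1qb (adjusted p = 0.0318 and 0.0459), and DESeq2 called Cd5l (adjusted p = 0.0384).

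**Figure D3:**
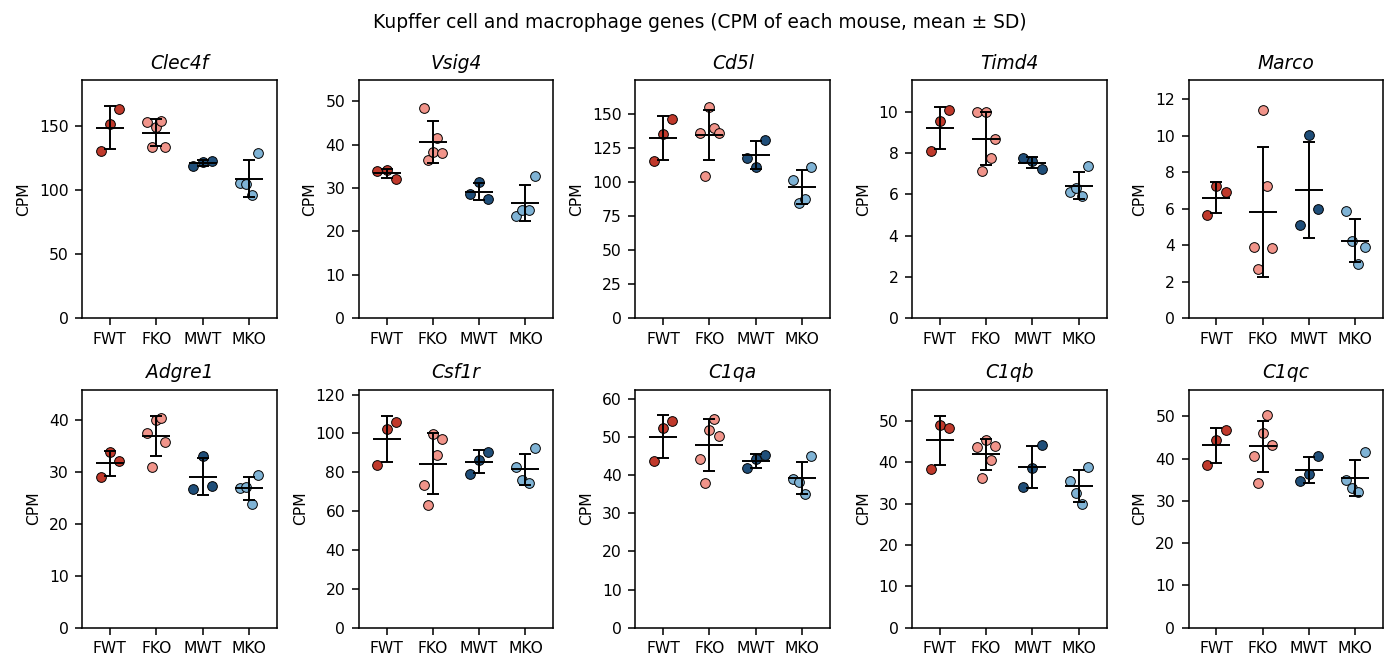
CPM of the 10 Kupffer cell and macrophage genes in each mouse (points) of the 4 groups, with the group mean and SD (bars); each vertical axis starts at 0. For every gene except Csf1r and Marco, the means of both female groups lie above those of both male groups, and Marco shows the widest spread.

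None of the 10 Kupffer genes passed the test for loss of ESR1 in females, in males or on average. With 0 of 10 called by edgeR in each of these 3 comparisons, 1 gene in females, 1 in males and 0 on average had an unadjusted p under 0.05, and DESeq2's Wald test also called 0 in each. In males all 10 estimates were below 0, with a median of -0.15, where 49.8% of all genes tested were above 0 with a median of -0.0011. Intervals in males were -0.39 to 0.08 for Clec4f and -0.61 to -0.03 for Cd5l on the log2 scale. The summed level of the list was 527, 620 and 647 CPM in FWT, 592, 487, 648, 626 and 591 in FKO, 494, 521 and 543 in MWT and 461, 431, 414 and 532 in MKO. MKO1, MKO2 and MKO3 had the lowest sums of all 15 mice, and FKO2 lay below every MWT mouse. Of the 18 further Kupffer and macrophage genes in the companion list, Folr2, a folate receptor of resident macrophages, and Tyrobp, an adaptor of activating receptors, were higher in females on average (log2 fold change 0.38 and 0.27, edgeR adjusted p = 0.0184 and 0.0444), and C6 was lower (-2.31, edgeR adjusted p = 2.21e-08). In that comparison 5.74% of all genes were called. C6 encodes a terminal complement component that hepatocytes make too. It stood at 23.7 ± 4.398 CPM (SD, n = 3) in FWT, 114 ± 26.4 CPM (SD, n = 5) in FKO, 394 ± 39.6 CPM (SD, n = 3) in MWT and 169 ± 40.1 CPM (SD, n = 4) in MKO. C6 was also called higher in ESR1KO females (2.26, edgeR adjusted p = 4.66e-06) and lower in ESR1KO males (-1.22, edgeR adjusted p = 0.00447). It was called above 0 on average over the sexes (0.52, edgeR adjusted p = 0.0485) and for the interaction (3.49, edgeR adjusted p = 1.87e-06). In the order given, 5.71%, 1.42%, 4.13% and 1.94% of all genes were called.

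In the fit over the 4 groups no endothelial gene passed the test in any of the 7 comparisons. edgeR called 0 of the 6 genes throughout, with an unadjusted p under 0.05 for at most 1 gene in a comparison. DESeq2 called Lyve1 higher in ESR1KO in females and on average (adjusted p = 0.0202 and 0.0271) and no other gene of this list. Lyve1, a hyaluronan receptor of sinusoidal and lymphatic endothelium (ENSMUSG00000030787, chr7:110850607-110863239, minus strand), was closest to a call in edgeR: it gave 13.3, 14.5 and 9.304 CPM in FWT, 19.1, 16.9, 18.9, 18.1 and 19.4 in FKO, 10.9, 18.9 and 12.3 in MWT and 15.04, 17.00, 14.7 and 19.8 in MKO. Every FKO mouse was above every FWT mouse, but the females' difference did not pass (log2 fold change 0.58, interval 0.22 to 0.94, adjusted p = 0.0578). With no filter on low counts edgeR called it in females and on average (adjusted p = 0.0183 and 0.0326). It passed in 2 of the 15 fits with a mouse left out, those without MWT1 or MWT2, and it did not pass without FKO1 and FKO2 (adjusted p = 0.101).

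For the other endothelial genes the intervals of the genotype difference included 0. Stab2, the hyaluronan-clearing scavenger receptor of sinusoidal endothelium, stood at 197, 180 and 191 CPM in FWT, 148, 139, 174, 157 and 191 in FKO, 174, 170 and 123 in MWT and 158, 163, 166 and 192 in MKO. The 4 ESR1KO males overlapped with the WT males, and MWT3 was the lowest of all mice. Averaged over the sexes the log2 difference between genotypes was -0.05 for Stab2 (interval -0.25 to 0.15), -0.06 for its relative Stab1 (-0.27 to 0.15), -0.02 for the VEGF receptor Kdr (-0.23 to 0.201) and 0.11 for the junction protein Pecam1 (-0.08 to 0.29). Clec4g, a lectin of sinusoidal endothelium, gave 56.2, 59.4 and 57.6 CPM in FWT, 69.3, 63.8, 53.7, 55.2 and 63.7 in FKO, 57.2, 49.4 and 35.02 in MWT and 41.8, 53.6, 43.4 and 58.1 in MKO. Females and males overlapped in both genotypes. It had a higher estimate in females (0.301, interval 0.08 to 0.52) but did not pass (adjusted p = 0.109), and passed with scaling by total counts (adjusted p = 0.0355). It was highest in FKO1 and FKO2 (69.3 and 63.8 CPM), the same 2 mice that were lowest for Stab1 (88.7 and 87.6 CPM). Among 22 companion genes Bmp2, which endothelium secretes to drive hepcidin in hepatocytes, was higher in females on average (log2 fold change 0.58, SE 0.112, edgeR adjusted p = 0.00487), and Dnase1l3, a secreted nuclease, was lower in ESR1KO females (log2 fold change -0.604, SE 0.16, edgeR adjusted p = 0.0371). For Dnase1l3 the FKO and FWT ranges overlapped.

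No stellate or fibroblast gene passed edgeR's test in any comparison when the 4 groups were fitted together, but 4 of them set FKO1 and FKO2 apart from the other mice at the low end and 2 at the high end. edgeR called 0 of 9 in each comparison, with an unadjusted p under 0.05 for 0 to 4 genes in a comparison, 3 of 9 for ESR1KO in males (11.9% of all genes) and 4 of 9 for ESR1KO females against ESR1KO males (17.5%). DESeq2 called 1 gene for ESR1KO averaged over the sexes, Col3a1 (adjusted p = 0.0444), and none in the other 6 comparisons. Col3a1, a fibrillar collagen (ENSMUSG00000026043, chr1:45311538-45349706, plus strand), gave 126, 92.8 and 85.4 CPM in FWT and 67.7, 75.6, 156, 168 and 190 in FKO, 111, 137 and 125 in MWT and 272, 193, 221 and 192 in MKO. All 4 MKO mice lay above all 3 MWT mice, and the FKO mice split into 2 low and 3 high. The male difference was 0.82 (interval 0.19 to 1.45, adjusted p = 0.233) and the female one 0.38 (interval -0.22 to 0.97, adjusted p = 0.456). Col3a1 was called higher in ESR1KO males when only the 2 male groups were fitted (log2 fold change 0.82, adjusted p = 0.0145), and higher on average with no filter on low counts (0.60, adjusted p = 0.0333). Without FKO1 and FKO2, the lowest mice for this gene, its female estimate was 0.76, a rise that the choice of mice fixes. The male estimate stayed at 0.82, while its edgeR adjusted p went from 0.233 to 0.0122. The spread is shared by the 4 groups, so this change too follows from the choice of mice.

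Col1a1, a chain of collagen I, stood at 19.6, 12.98 and 10.8 CPM in FWT, 6.25, 6.397, 19.7, 18.7 and 25.5 in FKO, 11.4, 17.5 and 23.7 in MWT and 44.5, 18.6, 35.5 and 26.2 in MKO. FKO1 and FKO2 were the lowest of the 15 mice and MKO1 the highest, a range of 6.25 to 44.5 CPM. The same 2 FKO mice were lowest for Col1a2 (17.8 and 22.6 CPM), the other chain of collagen I, and for Pdgfrb (8.62 and 9.79 CPM), the growth factor receptor of stellate cells and pericytes. In the opposite direction they were the highest for Lrat, the enzyme that esterifies retinol for storage in stellate cells (59.1 and 54.6 CPM, other mice 29.5 to 47.3), and for Dcn. Decorin binds collagen fibrils and its transcript gave 188, 142 and 138 CPM in FWT, 228, 208, 155, 172 and 151 in FKO, 142, 182 and 121 in MWT and 153, 154, 145 and 170 in MKO. Apart from the 2 high FKO mice the 4 groups overlapped. Reln, a secreted glycoprotein of stellate cells, was lowest in FKO1 (154 CPM) and had an interval of -0.22 to 0.21 for the difference between the sexes. Des, an intermediate filament protein of stellate cells, and Colec11, a collectin, had estimates of 0.11 and 0.17 for genotype averaged over the sexes, with intervals of -0.104 to 0.33 and -0.01 to 0.35.

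**Figure D4:**
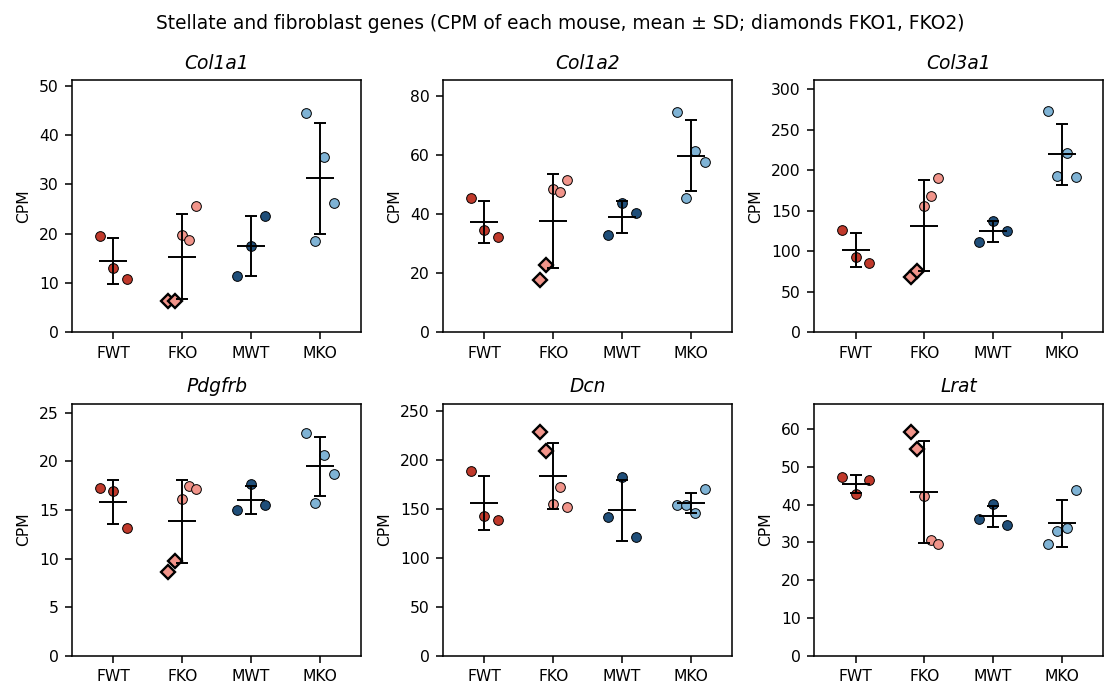
CPM of 6 stellate and fibroblast genes in each mouse (points; FKO1 and FKO2 as diamonds) of the 4 groups, with the group mean and SD (bars); each vertical axis starts at 0. The diamonds are the lowest mice for Col1a1, Col1a2, Col3a1 and Pdgfrb and the highest for Dcn and Lrat.

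Of the 23 companion genes for stellate cells and fibroblasts, 22 were tested. In males 2 were higher in ESR1KO and none lower, where 1.42% of all genes were called. They were Sparc, a collagen-binding matrix protein (log2 fold change 0.67, SE 0.147, edgeR adjusted p = 0.03), and Vim, an intermediate filament protein of mesenchymal cells (log2 fold change 0.74, SE 0.176, edgeR adjusted p = 0.0482). Averaged over the sexes Tagln, an actin-binding protein of smooth muscle and activated stellate cells, joined them (log2 fold change 0.51, SE 0.122, edgeR adjusted p = 0.0287), while Rgs5, a pericyte regulator of G protein signalling, was lower in ESR1KO (log2 fold change -0.35, SE 0.092, edgeR adjusted p = 0.0403). Averaged over the genotypes Rgs5 was higher in females (log2 fold change 0.47, edgeR adjusted p = 0.00585) and Tagln lower (-0.53, edgeR adjusted p = 0.0145), where 5.74% of all genes were called. In males 21 of the 22 estimates were above 0 with a median of 0.22, and in females 7 of 22 with a median of -0.13. Mesothelial genes, which mark the liver capsule, had 0 of 6 called by edgeR in any comparison, and in males all 6 estimates were higher in ESR1KO (median 0.86, 2 of 6 with an unadjusted p under 0.05, 11.9% of all genes). Their part in the collagen values was not tested.

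Of the 5 bile duct genes 4 were called in at least 1 comparison, as were 12.1% of all genes, and they did not all move in 1 direction. Epcam, an adhesion molecule of biliary epithelium (ENSMUSG00000045394, chr17:87635979-87651129, plus strand), gave 1.45, 1.54 and 1.24 CPM in FWT, 0.593, 0.733 and 0.666 in MWT, 1.32, 0.993, 1.12, 1.03 and 1.57 in FKO and 1.05, 1.26, 1.202 and 1.58 in MKO. The 3 MWT mice were the lowest of all 15, and the other 3 groups overlapped. Epcam was higher in WT females than in WT males (log2 fold change 1.08, SE 0.22, edgeR adjusted p = 0.00657), and this call held in all 15 fits with a mouse left out. In males it rose with the loss of ESR1 (log2 fold change 0.95, SE 0.209, edgeR adjusted p = 0.03), and in females the estimate was -0.21 (interval -0.61 to 0.18, adjusted p = 0.531). The difference between those effects was called (log2 fold change -1.17, SE 0.279, edgeR adjusted p = 0.039), but was lost in 12 of the 15 fits with a mouse left out (it held only without FKO1, FKO5 or MKO1; largest adjusted p = 0.119), without FKO1 and FKO2 (adjusted p = 0.0619) and with no filter (adjusted p = 0.0881). The male rise was lost without any 1 of the MWT mice, MKO3 or MKO4 (largest adjusted p = 0.136). The average over the genotypes was called too (log2 fold change 0.4999, SE 0.14, edgeR adjusted p = 0.0456), and it held in only 3 of the 15 such fits, those without FKO2, FKO4 or MKO4 (largest adjusted p = 0.125), and not with no filter (adjusted p = 0.113).

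Krt19, a keratin of bile duct cells (ENSMUSG00000020911, chr11:100140810-100148665, minus strand), stood at 0.667, 0.562 and 0.396 CPM in MWT and 1.16, 1.75, 1.15 and 0.971 in MKO, and at 0.963, 0.876 and 0.596 in FWT and 1.34, 0.7997, 0.912, 1.01 and 1.18 in FKO. All MKO mice lay above all MWT mice, and the female groups overlapped. The male rise was called (log2 fold change 1.23, SE 0.271, edgeR adjusted p = 0.0307) and so was the average over the sexes (log2 fold change 0.797, SE 0.184, edgeR adjusted p = 0.0221). The first was lost without any 1 of the MWT mice, MKO1, MKO2 or MKO3 (largest adjusted p = 0.204) or with only the male groups fitted (adjusted p = 0.0523), the second without FWT3 or MWT3 (largest adjusted p = 0.0831). Krt19 had between 23 and 78 reads per mouse.

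Sox9, the transcription factor of the biliary lineage (ENSMUSG00000000567, chr11:112782224-112787760, plus strand), ran in the other direction. It gave 1.01, 0.899 and 0.871 CPM in FWT and 1.51, 1.47 and 2.66 in MWT, with 1.46, 1.02, 1.33, 1.07 and 1.18 in FKO and 1.77, 1.03, 2.11 and 1.38 in MKO. WT females were all below WT males, MWT3 was the highest of all mice, and ESR1KO females and males overlapped. Sox9 was lower in WT females than in WT males (log2 fold change -1.03, SE 0.273, edgeR adjusted p = 0.0384), a call lost without any 1 of the FWT mice or MWT3 (largest adjusted p = 0.201; without MWT3 the log2 fold change was -0.67), with only the WT groups fitted (adjusted p = 0.0615) and with scaling by total counts (adjusted p = 0.056). It was also lower in females on average (log2 fold change -0.7002, SE 0.176, edgeR adjusted p = 0.0266), lost without FWT2, FWT3, MWT3 or MKO3 (largest adjusted p = 0.0798). Spp1, or osteopontin (ENSMUSG00000029304, chr5:104435118-104441050, plus strand), stood at 28.6, 28.5 and 29.3 CPM in FWT and 45.7, 40.7, 39.8, 44.4 and 47.04 in FKO, and at 38.3, 30.4 and 51.2 in MWT and 44.6, 40.3, 53.8 and 36.6 in MKO. The 3 FWT mice were the lowest of the 15 and lay between 28.5 and 29.3 CPM, while the male groups overlapped. Spp1 rose in ESR1KO females (log2 fold change 0.596, SE 0.147, edgeR adjusted p = 0.0272), a call lost without any 1 of the FWT mice (largest adjusted p = 0.0978) and without FKO1 and FKO2 together (adjusted p = 0.0579). Krt7, another ductal keratin, with at most 60 reads per mouse, was not called in any comparison (log2 fold change 0.28 for genotype averaged over the sexes, interval -0.21 to 0.76).

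**Figure D5:**
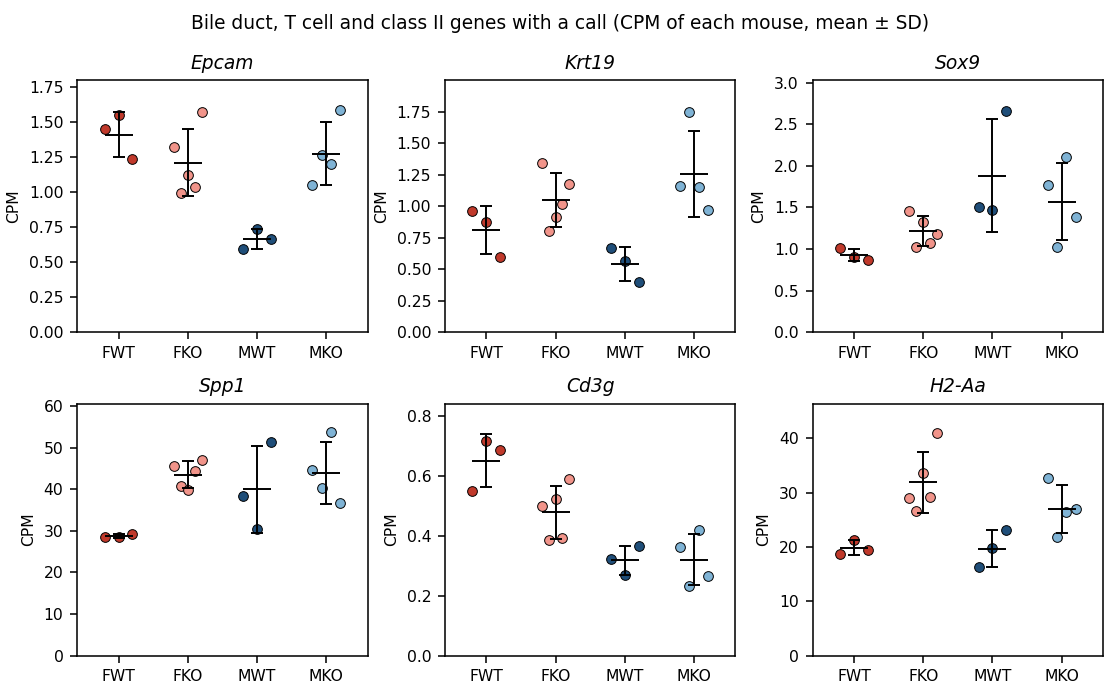
CPM of the called bile duct genes Epcam, Krt19, Sox9 and Spp1, of the T cell gene Cd3g and of the class II gene H2-Aa in each mouse (points) of the 4 groups, with the group mean and SD (bars); each vertical axis starts at 0. Epcam is lowest in MWT, Spp1 and H2-Aa are lower in FWT than in FKO, and MWT3 is the highest point for Sox9.

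Of 15 companion genes of bile duct and progenitor cells, 14 were tested. Between WT females and WT males 3 were higher in females and none lower, where 4.87% of all genes were called. Averaged over the genotypes 4 were higher in females and 1 lower (5.74% of all genes called). In ESR1KO females none was higher and 3 were lower (5.71%), and in ESR1KO males 1 was higher and 1 lower (1.42%). Prom1, a membrane protein of progenitor cells, had 5.25 ± 0.373 CPM (SD, n = 3) in FWT, 2.11 ± 0.519 CPM (SD, n = 5) in FKO, 1.29 ± 0.091 CPM (SD, n = 3) in MWT and 1.41 ± 0.207 CPM (SD, n = 4) in MKO. It was higher in WT females (log2 fold change 2.03, SE 0.211, edgeR adjusted p = 7.7e-06) and fell in ESR1KO females (log2 fold change -1.31, SE 0.175, edgeR adjusted p = 0.000203). Pkhd1, the fibrocystin gene of biliary cilia, was also higher in WT females (log2 fold change 0.82, SE 0.112, edgeR adjusted p = 0.000162). Sox4, a transcription factor related to Sox9, rose in ESR1KO males (log2 fold change 0.82, SE 0.164, edgeR adjusted p = 0.0164) and on average over the sexes (log2 fold change 0.52, SE 0.112, edgeR adjusted p = 0.015). Cdh1, or E-cadherin, which hepatocytes express as well, fell in ESR1KO mice of both sexes (-0.85 in females and -0.65 in males, adjusted p = 0.00208 and 0.0402). For Prom1 and Pkhd1, as for Epcam, the interaction of genotype and sex was called below 0 (-1.46 and -0.59, adjusted p = 0.00651 and 0.0423). In Prom1 and Pkhd1 the called genotype change was a fall in females, and in Epcam it was a rise in males.

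In the immune list, the class II gene H2-Aa was higher in ESR1KO and the T cell gene Cd3g was higher in females. H2-Aa, the alpha chain of the class II molecule that presents peptides to CD4 T cells (ENSMUSG00000036594, chr17:34282744-34287823, minus strand), stood at 18.6, 21.4 and 19.5 CPM in FWT and 29.00, 26.6, 33.7, 29.2 and 40.9 in FKO, and at 16.2, 19.8 and 23.1 in MWT and 32.8, 21.8, 26.5 and 26.96 in MKO. Every FKO mouse was above every FWT mouse, and in males only MKO2 fell within the range of MWT. The genotype difference was called in females (log2 fold change 0.69, SE 0.155, edgeR adjusted p = 0.0162) and on average over the sexes (log2 fold change 0.57, SE 0.111, edgeR adjusted p = 0.00882). The average held in all 15 fits with a mouse left out, and the female call was lost without FWT1 or FWT3 (largest adjusted p = 0.0814). Both passed without FKO1 and FKO2 (edgeR adjusted p = 0.0107 and 0.00539). These were the 2 lowest FKO mice for H2-Aa, so leaving them out raises the estimate by construction (0.81 in females) and does not test the calls. In males the estimate was 0.45 (interval 0.11 to 0.79, adjusted p = 0.222).

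H2-Ab1 (ENSMUSG00000073421, chr17:34257689-34269419, plus strand), the partner chain and neighbour of H2-Aa, gave 13.98, 16.5 and 15.3 CPM in FWT, 15.3, 13.4, 25.6, 23.5 and 30.2 in FKO, 8.32, 14.3 and 16.6 in MWT and 21.6, 14.1, 18.1 and 16.9 in MKO. The 3 upper FKO mice stood apart from FKO1 and FKO2, which lay in or below the FWT range. Cd74, the invariant chain that guides class II molecules, showed the same split, with 50.4, 57.1 and 50.7 CPM in FWT, 46.6, 41.5, 83.1, 63.5 and 85.8 in FKO, 36.4, 48.3 and 57.2 in MWT and 67.5, 49.9, 63.3 and 59.8 in MKO. Averaged over the sexes H2-Ab1 had an estimate of 0.47 (interval 0.09 to 0.85, adjusted p = 0.161) and Cd74 one of 0.31 (interval -0.01 to 0.64, adjusted p = 0.277). Without FKO1 and FKO2, the lowest FKO mice for both, the estimates were 0.61 and 0.45. All 11 companion genes of dendritic cells and antigen presentation had an estimate above 0 for the same comparison (median 0.19), with 0 called by edgeR and 2 at an unadjusted p under 0.05 (19.4% of all genes). Ccr2, a chemokine receptor of monocytes, was the only called gene among 7 tested of 12 for monocytes and neutrophils (log2 fold change 0.52, SE 0.142, edgeR adjusted p = 0.0499).

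Cd3g, a chain of the CD3 complex of T cells (ENSMUSG00000002033, chr9:44969572-44980431, minus strand), had few reads. It gave 0.55, 0.715 and 0.688 CPM in FWT and 0.321, 0.269 and 0.365 in MWT, with 0.5003, 0.386, 0.521, 0.393 and 0.589 in FKO and 0.361, 0.233, 0.418 and 0.266 in MKO. WT females were all above WT males, and the ESR1KO groups overlapped. The averaged difference between the sexes was called (log2 fold change 0.801, SE 0.175, edgeR adjusted p = 0.0112) and held in all 15 fits with a mouse left out, while the call within WT (log2 fold change 1.003, SE 0.266, edgeR adjusted p = 0.0378) was lost in 7 of them, those without any 1 of the WT mice or MKO1 (largest adjusted p = 0.143), by DESeq2 (adjusted p = 0.0833) and with no filter (adjusted p = 0.124). Cd3e, the neighbouring gene for another CD3 chain, had an estimate of 0.43 with an interval of -0.18 to 1.04, and Nkg7, a granule protein of killer cells, one of 0.65 with 0.04 to 1.27; neither was called. Of 15 companion genes of T and NK cells, 14 were tested. Trbc2, a T cell receptor constant chain, was higher in females on average (log2 fold change 0.67, SE 0.18, edgeR adjusted p = 0.0367), whereas Cd4, which macrophages may also express, was lower in WT females (log2 fold change -0.97, SE 0.262, edgeR adjusted p = 0.0412) and Gzmb, a granzyme, lower in ESR1KO females (log2 fold change -1.502, SE 0.393, edgeR adjusted p = 0.0353). Gzmb had a low level (mean 0.262 CPM in FKO and 0.745 in FWT), and the FKO and FWT ranges overlapped. Cd79a, a B cell receptor component, was not called (interval for sex -0.41 to 0.65), and of 8 companion B cell genes Ighm was lower in females (log2 fold change -0.88, SE 0.184, edgeR adjusted p = 0.00867). Ptprc, or CD45, which marks blood-derived cells as a whole, had an estimate of 0.27 for sex (interval 0.07 to 0.47, adjusted p = 0.113).

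Summed over each list, the levels put the groups in different orders for each cell type, with no test made on the sums. Endothelial sums were 537, 517 and 520 CPM in FWT, 439, 414, 510, 483 and 558 in FKO, 492, 500 and 360 in MWT and 456, 468, 464 and 560 in MKO, with MWT3 lowest. Stellate sums averaged 629 ± 87.2 CPM in FWT (SD, n = 3), 657 ± 61.9 in FKO (n = 5), 611 ± 92.1 in MWT (n = 3) and 776 ± 72.9 in MKO (n = 4), and MKO overlapped with each other group. Bile duct sums were 32.9, 32.6 and 32.4 CPM in FWT and 50.6, 44.1, 43.7, 48.7 and 51.4 in FKO, and 41.6, 33.98 and 55.6 in MWT and 49.4, 45.5, 59.3 and 41.3 in MKO. FWT was below every other mouse, and most of this sum is Spp1. Immune sums averaged 114 ± 8.05 CPM in FWT, 146 ± 31.5 in FKO, 102 ± 21.3 in MWT and 127 ± 17.0 in MKO, and all 4 ranges overlapped. Hepatocyte genes took 13.2% to 14.3% of counts in FWT, 11.6% to 13.3% in FKO, 10.5% to 11.1% in MWT and 11.3% to 12.2% in MKO, so that FWT lay above both male groups. Much of this sum is Alb, with a mean of 8.641e+04 CPM in FWT and 5.455e+04 in MWT. The list sums averaged 1.334e+05 and 1.088e+05 CPM in these groups. Between the WT sexes 7 of the 11 hepatocyte estimates were lower in females (median log2 fold change -0.08). Of 11 tested, 1 was called between the WT sexes (Alb, higher in females) and 1 averaged over the genotypes (Apoa1, lower in females), and none for ESR1KO in females, in males or on average, where 3 genes each had an unadjusted p under 0.05. In the erythroid list Alas2, the haem synthesis enzyme of red cell precursors, was the only gene of 7 called, with 21.7 ± 12.9 CPM (SD, n = 3) in FWT, 128 ± 16.1 CPM (SD, n = 5) in FKO, 170 ± 19.5 CPM (SD, n = 3) in MWT and 162 ± 5.897 CPM (SD, n = 4) in MKO. In the list of pancreas and adipose genes only 1 of 9 had enough reads to be tested and it was not called.

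Between mice of the same group, the genes of the Kupffer, immune and endothelial lists mostly varied together, and those of the bile duct list did not. Pearson's r was taken over the deviations of log2 CPM from the group mean in the 15 mice, as a description, since all points of a mouse share 1 library. Its median over pairs within a list was 0.64 for the 45 Kupffer pairs (Spearman 0.60), 0.56 for the 28 immune pairs (0.59), 0.52 for the 15 endothelial pairs (0.46), 0.39 for the 36 stellate pairs (0.37) and -0.03 for the 10 bile duct pairs (0.06). Of the stellate pairs 26 of 36 were above 0, and of the bile duct pairs 3 of 10. Vsig4 followed several genes of its list less closely than the Kupffer median of 0.64. Its r was 0.28 with Cd5l, 0.115 with Csf1r and 0.29 to 0.35 with the C1q genes. Between lists the medians lay between -0.11 and 0.34. Without FKO1 and FKO2 the endothelial median was 0.84 and the Kupffer median 0.60, and the median between Kupffer and endothelial genes went from 0.31 to 0.10.

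Within the stellate list 2 sets of genes ran against each other. Col1a1, Col1a2 and Col3a1 had r between 0.94 and 0.98 with each other. Lrat had r of -0.82 with Col3a1 and 0.68 with Dcn, and Dcn had r of -0.46 with Col3a1. Without FKO1 and FKO2 the collagens still moved together (0.84 to 0.92). With Col3a1, Lrat then had r of -0.38 and Dcn one of 0.40, so that the negative relations with Col3a1 rested mostly on those 2 mice. H2-Aa, H2-Ab1 and Cd74 had r between 0.86 and 0.96 with each other, and between 0.91 and 0.92 without the 2 mice. Cd74 had r of 0.80 with Col3a1 over the 15 mice and 0.38 over 13. C1qa and C1qc had r of 0.96, and C1qb had 0.75 and 0.77 with them.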

How the data were processed

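Liver RNA of 15 mice, 1 library each, was sequenced and the deposited table holds whole-number counts per gene. According to the submitters' processing notes, the authors used Trimmomatic 0.36, STAR, GRCm38 and HTSeq 0.6.0, which trim, align and sum reads per gene. The study's methods name the same counter in a later version, and which version made the table is not stated. Which annotation release, strand option and handling of multiply aligned reads were used is not given in the sources used here, so that overlapping genes may share reads. Some libraries received a second sequencing run, and which ones is not stated.

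Genes were filtered with filterByExpr (17655 of 55573 tested), scaled by TMM (factors 0.957 to 1.03) and fitted over the 4 groups with edgeR 4.0.16 in R 4.3.3 by the quasi-likelihood test, with Benjamini-Hochberg adjustment over all genes tested and intervals of 95%. CPM are TMM-scaled and have no prior count, and correlations use log2 CPM with a prior count of 2. Each library is a separate mouse. No 2 replicates agreed within sampling noise (lowest chi-square per gene 23.5). The edgeR test was also run on simulated data, but not for the comparisons averaged over the sexes or over the genotypes. The outcome of those runs is not given here.

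The members and lists were chosen with earlier results of these data known, and the companion lists came from general knowledge of liver cell types. Genes called in any comparison and the most abundant gene of each list are given by mouse, and of each companion list at most 4 called genes of smallest p are named. Lyve1, Stab2, Col3a1, Col1a1 and H2-Ab1 are given by mouse as well, chosen after their values were seen. Alternatives were DESeq2 1.42.0, other scalings and filters, a fold minimum, a replicate block, fits of only the groups compared and fits without each mouse. Promoters came from RefSeq (GRCm38.p6), and rows were placed in GENCODE M21 by identifier (55394 of 55573).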

Additional observations from a re-analysis of the deposited data

Results flagged for a closer look

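Of 76 groups of 4 or 5 mice examined for 1 mouse far from the others, 2 were found. Chance gives about 1 in 20, or 3.8 over the groups examined, so that the 2 found are no more than chance would give. Kdr, the VEGF receptor of endothelium, was at 126.5 CPM in MKO4 and at 97.7 to 101.6 CPM in the other 3 MKO mice. Ptprc, or CD45, was at 34.4 CPM in FKO1 and at 24.1 to 26.1 CPM in the other 4 FKO mice. The effect of genotype on Epcam differed between the sexes by the interaction test, with a log2 difference of -1.17 for females minus males and an edgeR adjusted p = 0.039. That call was lost in 12 of 15 fits with a mouse left out.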

How the results depend on the processing

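No called gene changed direction under any alternative run. With a minimum log2 fold change of 1.5 the count of called genes was 0 in each of the 7 comparisons. Without a filter it was 3 between the ESR1KO sexes, 0 for the interaction, 5 for ESR1KO averaged over the sexes and 4 for sex averaged over the genotypes. Scaling by total counts gave 2 between the ESR1KO sexes, fitting only the groups compared gave 0 there, and DESeq2 gave 5 there and 5 for ESR1KO averaged over the sexes. Without FKO1 and FKO2, an alternative chosen after seeing the data, the counts were 2 between the ESR1KO sexes, 0 for the interaction and 6 for ESR1KO averaged over the sexes. With a mouse left out they ranged from 0 to 3 for ESR1KO in females, 0 to 2 in males, 1 to 3 between the WT sexes, 0 to 2 between the ESR1KO sexes, 0 to 1 for the interaction, 1 to 3 for ESR1KO on average and 2 to 9 for sex on average. With the replicate number as a block the counts were 2, 1, 3, 1, 1, 2 and 4 in the order of the report, where Epcam in males (adjusted p = 0.0892) and, for sex on average, Timd4 (0.0686), Adgre1 (0.0593) and Epcam (0.102) lost their call. The 19 same-numbered pairs correlated between -0.195 and 0.140, 1 of them over 0.1. No pairing by number was seen in these values, and a weaker pairing was not tested. A mean of log2 CPM in place of the summed CPM moved the list difference for bile duct genes to 0.22 in females (0.54 by the sum), 0.49 in males (0.18) and 0.0603 between the WT sexes (-0.39), and for immune genes in females to -0.0147 (0.34). Spp1 and Cd74 are the most abundant genes of these sums. The remaining counts and summed levels stayed within 1.5 times or 1 SD. Depth limits Cd3g, Cd3e, Nkg7 and Cd79a, which had fewer than 60 reads in every mouse.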
